A study of Mus musculus with 219 samples.

Results

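Contralateral and equatorial intracytoplasmic sperm injection (ICSI) were compared in 34 mouse embryos at the 2-cell stage, 21 contralateral and 13 equatorial, out of 55 embryos of all ICSI groups that met the same rule and 62 of which both blastomeres were in the table. In ICSI a sperm head is placed in the oocyte with a needle. For the contralateral ICSI it was released at the vegetal pole, opposite the spindle of the second meiotic metaphase, and for the equatorial ICSI it was released midway between the poles. The remaining 21 embryos had received the sperm head beside the spindle (ipsilateral ICSI). They enter here through the common fit, in the choice of genes tested, the scaling, the plate term and the estimate of the spread. They also enter reference levels taken over all embryos, and values set beside the contralateral ones. All oocytes came from B6C3F1 females and all sperm heads from frozen aliquots of CD1 males, so the embryos were of the cross B6C3F1xCD1, and none was obtained without injection. They were cultured in KSOM with amino acids and split within hours of the first cleavage, and each blastomere was sequenced by itself as full-length cDNA. Members were the embryos of which both sister blastomeres had at least 9500 detected genes. The counts of the sisters were added, so that the embryo was the replicate. The study used the equatorial ICSI as the group in which the needle had not passed near the spindle, and asked with this comparison whether injection at a pole by itself changes gene expression, for example through a response to DNA damage.

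A mouse embryo of this stage lives largely on mRNA and protein laid down during oocyte growth. Most maternal mRNAs are stored with short poly(A) tails, are adenylated or degraded in waves around meiosis and fertilization, and are replaced as the embryonic genome is activated in the 2-cell stage. Proteins of the subcortical maternal complex, the endomembrane system, mitochondria and the translation machinery are inherited by both blastomeres. The first transcripts of the embryo include retroelement-driven genes and members, though not all, of the Zscan4 and Obox families of transcription factors. Counts of a gene do not tell its stored mRNA from newly made mRNA.

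The 42 contralateral and 26 equatorial blastomeres had 439326 to 1930232 and 360474 to 1982952 counts. Contralateral embryos had more detected genes per blastomere (12018 ± 551, SD, n = 21) than equatorial ones (11461 ± 659, n = 13; 2-sided permutation test, p = 0.0139, adjusted p = 0.0209 over 3 measures), and within plate 1 the adjusted p was 0.0579. The share of counts from mitochondrial genes was 1.02% to 3.03% (median 1.61%) in contralateral and 1.01% to 1.76% (median 1.24%) in equatorial embryos (2-sided permutation test, adjusted p = 0.0209). The total count per embryo did not pass this test (adjusted p = 0.140). Of 10 oocyte markers (Gdf9, Bmp15, Dppa3, Zp3, Nlrp5, Ooep, H1foo, Npm2, Zar1, Oosp1) none was at 0 throughout a group, and together they reached 4466 to 6167 and 4039 to 6049 CPM, counts scaled to the size of the library. The 13 cumulus cell markers summed to 1.33 to 64.7 and 11.5 to 73.6 CPM, with Inha and Amh at 0 in every embryo of both groups, Ptx3 in the contralateral and Fshr in the equatorial ones. The 7 sperm markers summed to at most 20.7 and 23.8 CPM. Of these markers 4 and 1 had enough counts to be tested, and none was called.

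Levels below are CPM scaled by trimmed mean (TMM) factors, given as the lowest, highest and median embryo of each group. Fold changes are contralateral against equatorial on the log2 scale with their standard error (SE), from edgeR's quasi-likelihood test with plate as a covariate. CPM are shares of a library, so a higher level of a gene and a lower level of other RNA cannot be told apart. A gene is called at a Benjamini-Hochberg adjusted p under 0.05 over the 13141 genes tested. Of these, 936 were called higher and 797 lower after contralateral ICSI, which is 7.12% and 6.06% of the genes tested (13.2% in both directions). Differences were mostly small. The median fold change was 1.59 among genes called higher and 1.56 in the opposite direction among genes called lower, and 232 of the genes that rose did so by more than 1 on the log2 scale. In no called gene were the 2 groups fully apart. With the mitochondrial share of each embryo as a covariate 690 genes were called (5.25%), 380 higher (2.89%) and 310 lower (2.36%), and among embryos whose sisters were both at or under 2% mitochondrial counts 1104. The part of the mitochondrial share in the other calls was not tested.

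**Figure D1:**
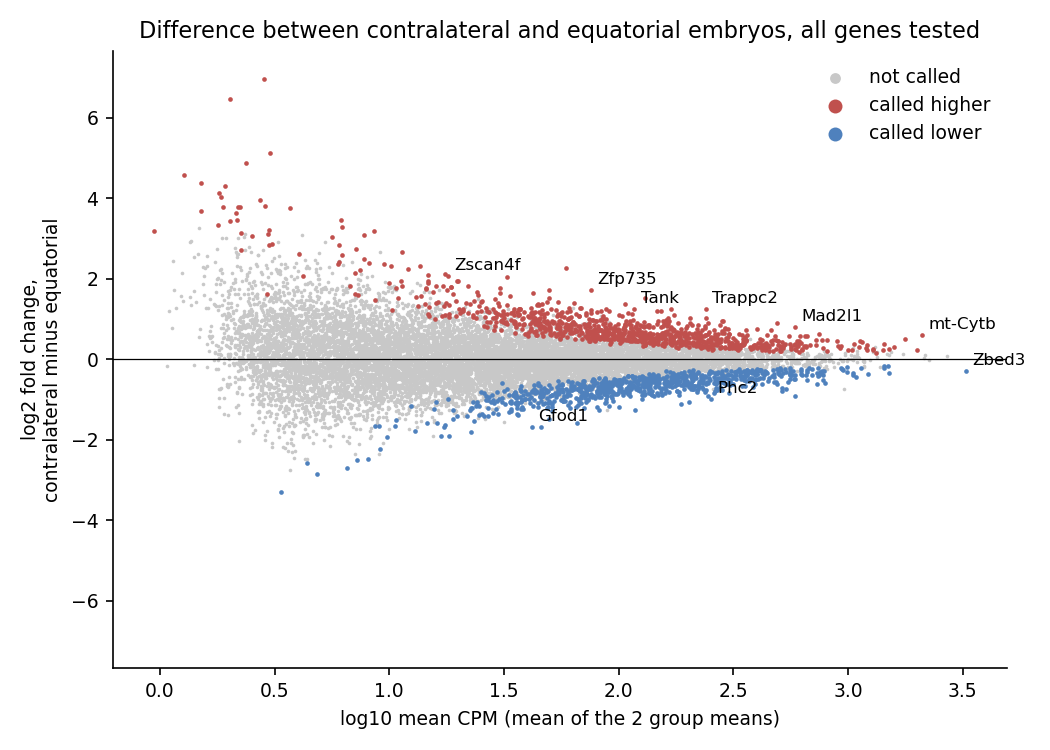
Each point is a gene tested, with the log10 of its mean level (CPM) on the x axis and the log2 fold change, contralateral minus equatorial embryos, on the y axis. The 936 genes called higher and 797 called lower lie mostly within 1 unit of no change, and the largest fold changes are those of genes with low counts.

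The 10 genes that rose with the smallest p had varied roles. Trappc2 (ENSMUSG00000079317, chromosome X from 166440574 to 166453140 in GRCm38), a subunit of the TRAPP complex that tethers vesicles between endoplasmic reticulum and Golgi, ranged from 118.5 to 529.8 CPM (median 336) in contralateral and from 55.3 to 271 CPM (median 137) in equatorial embryos. In 18 of 21 contralateral embryos it was above all equatorial embryos but the groups overlapped (log2 fold change 1.24, SE 0.16, adjusted p = 3.94e-07). Tank (ENSMUSG00000064289, chromosome 2 from 61578585 to 61654171), an adaptor of TRAF proteins in innate immune signalling, ranged from 53.5 to 247 CPM (median 173) in contralateral and from 29.6 to 110.4 CPM (median 73.8) in equatorial embryos, with 17 contralateral embryos above every equatorial one (log2 fold change 1.25, SE 0.17, adjusted p = 2.72e-06). Vta1 (ENSMUSG00000019868, chromosome 10 from 14654755 to 14705560), which activates the ATPase that takes ESCRT-III filaments apart, ranged from 66.1 to 341 CPM (median 201) in contralateral and from 43.03 to 181 CPM (median 74.5) in equatorial embryos (log2 fold change 1.21, SE 0.17, adjusted p = 2.72e-06). Of the contralateral embryos 13 were above the highest equatorial one and 20 above the equatorial median. Triqk, a small protein of the endoplasmic reticulum, ranged from 104 to 239 CPM (median 153) in contralateral and from 61.98 to 115.3 CPM (median 82.3) in equatorial embryos (log2 fold change 0.89, SE 0.12, adjusted p = 2.72e-06), and all 21 contralateral embryos were above the equatorial median. Rab11a, the GTPase of recycling endosomes, rose less (log2 fold change 0.55, SE 0.086, adjusted p = 1.24e-05) but had little spread, from 222 to 516 CPM against 177 to 317 CPM. Bbip1, a subunit of the BBSome that carries cargo into cilia, had a median of 139 CPM in contralateral and 67.8 CPM in equatorial embryos (log2 fold change 1.06, SE 0.17, adjusted p = 1.81e-05).

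Mad2l1 (ENSMUSG00000029910, chromosome 6 from 66535390 to 66547220), the spindle checkpoint protein that holds back the anaphase-promoting complex, ranged from 287 to 1216 CPM (median 745) in contralateral and from 259.9 to 679.8 CPM (median 412) in equatorial embryos (log2 fold change 0.81, SE 0.12, adjusted p = 3.67e-06). Its level was high in both groups, and 20 of 21 contralateral embryos were above the equatorial median. Hprt, the X-linked enzyme of purine salvage, ranged from 88.8 to 554 CPM (median 364) in contralateral and from 86.1 to 279 CPM (median 194) in equatorial embryos, and 19 contralateral embryos were above every equatorial one (log2 fold change 0.96, SE 0.14, adjusted p = 2.72e-06). Taf9b, an X-linked relative of a subunit of the general transcription factor TFIID, had a median of 232 CPM in contralateral and 122.3 CPM in equatorial embryos (log2 fold change 0.90, SE 0.14, adjusted p = 1.24e-05). Nlrp9c, an oocyte-expressed member of the NLR family with close copies on chromosome 7 among which reads could be split, had a median of 912 CPM in contralateral and 532 CPM in equatorial embryos (log2 fold change 0.63, SE 0.10, adjusted p = 1.24e-05), but only 4 contralateral embryos lay above the highest equatorial embryo.

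The 10 genes that fell with the smallest p were as varied. Phc2 (ENSMUSG00000028796, chromosome 4 from 128654702 to 128752881), a subunit of Polycomb repressive complex 1, ranged from 93.8 to 368 CPM (median 159) in contralateral and from 193 to 595 CPM (median 311) in equatorial embryos (log2 fold change -0.99, SE 0.14, adjusted p = 2.72e-06). Of the contralateral embryos 16 were below every equatorial one. Hic2, a zinc finger repressor, ranged from 102.4 to 322 CPM (median 182) in contralateral and from 145 to 505 CPM (median 346) in equatorial embryos (log2 fold change -0.85, SE 0.13, adjusted p = 1.24e-05), and Zfp296, a zinc finger protein, had a median of 123.7 CPM in contralateral and 227 CPM in equatorial embryos (log2 fold change -0.90, SE 0.14, adjusted p = 2.38e-05). Tcf20, a transcriptional coregulator, had a median of 185 CPM in contralateral and 334 CPM in equatorial embryos (log2 fold change -0.77, SE 0.13, adjusted p = 2.38e-05), though 1 contralateral embryo lay below the lowest equatorial one. Hdgf, a nuclear protein with growth factor activity, ranged from 80.8 to 300.4 CPM (median 165) in contralateral and from 208 to 429 CPM (median 285) in equatorial embryos, and 18 contralateral embryos were below all equatorial embryos (log2 fold change -0.82, SE 0.12, adjusted p = 1.24e-05). Tob2 recruits the CCR4-NOT deadenylase to mRNA, and all 21 contralateral embryos were below its equatorial median (159.9 against 282 CPM as medians, log2 fold change -0.92, SE 0.14, adjusted p = 1.47e-05).

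Gfod1 (ENSMUSG00000051335, chromosome 13 from 43195245 to 43304172) had the strongest fall of these genes and ranged from 6.84 to 52.4 CPM (median 17.96) in contralateral and from 24.9 to 155 CPM (median 56.03) in equatorial embryos (log2 fold change -1.68, SE 0.26, adjusted p = 1.24e-05). All 21 contralateral embryos were below the equatorial median and 16 below every equatorial embryo. N4bp1, an inhibitor of NEDD4-type ubiquitin ligases, had a median of 365 CPM in contralateral and 644 CPM in equatorial embryos (log2 fold change -0.73, SE 0.11, adjusted p = 1.47e-05). Pdxp, a phosphatase of pyridoxal phosphate, had a median of 53.8 CPM in contralateral and 134 CPM in equatorial embryos (log2 fold change -1.19, SE 0.18, adjusted p = 1.24e-05). Gnb2, a beta subunit of heterotrimeric G proteins, had a median of 58.8 CPM in contralateral and 116.4 CPM in equatorial embryos (log2 fold change -1.06, SE 0.17, adjusted p = 2.38e-05), and 18 contralateral embryos were below every equatorial one.

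**Figure D2:**
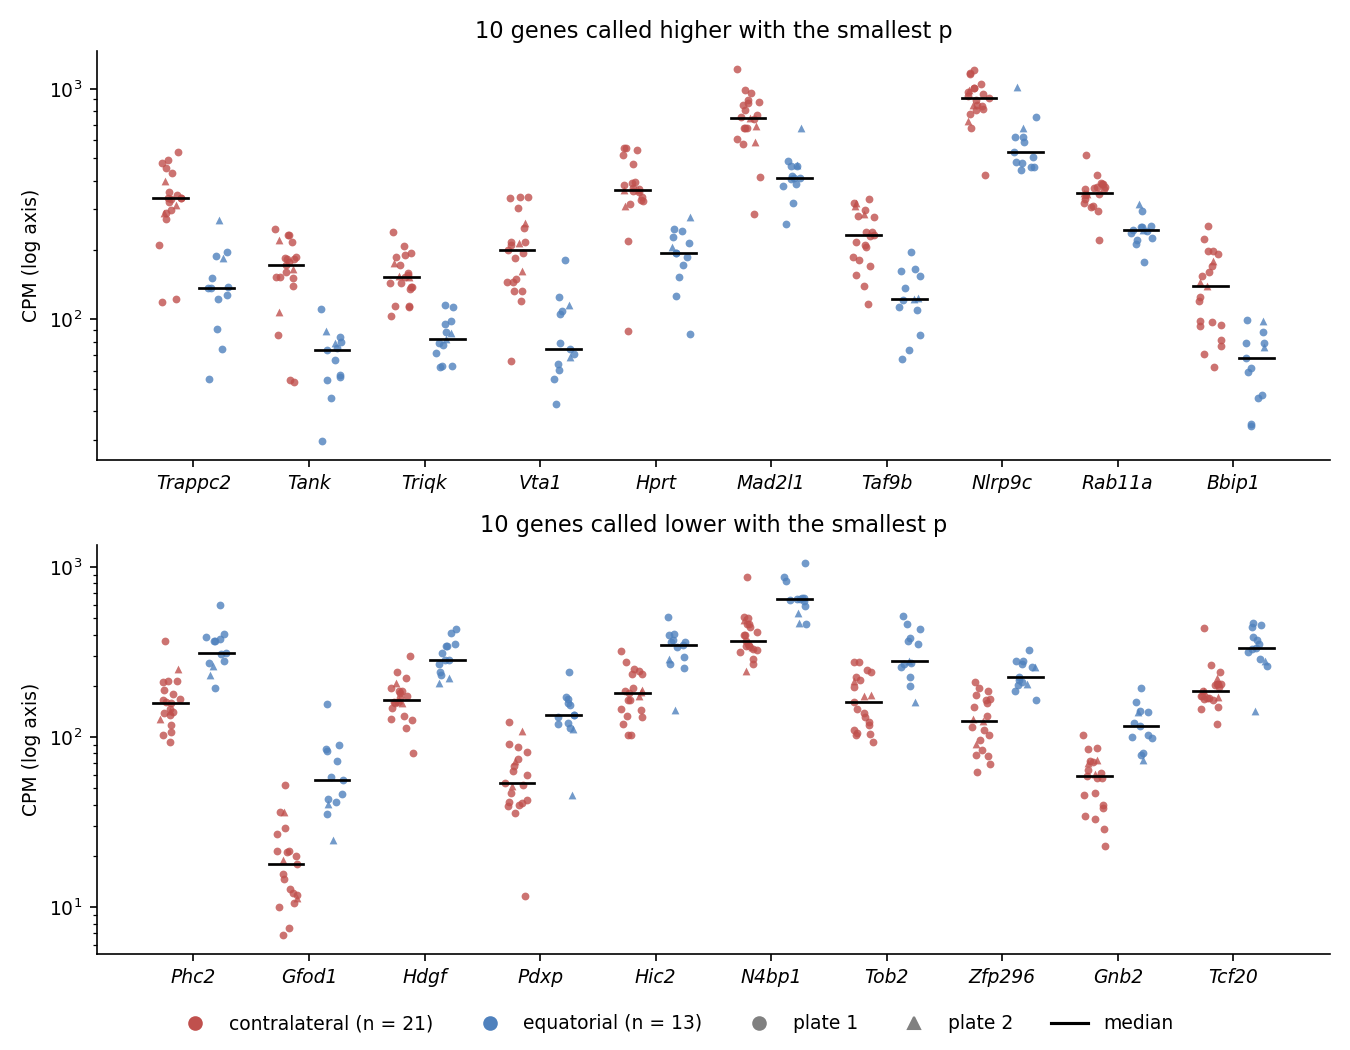
Level (CPM, log axis) of the 10 genes called higher and the 10 called lower with the smallest p, 1 point for each embryo, circles for plate 1 and triangles for plate 2, with a bar at the group median. The medians are apart for all 20 genes, while single embryos of the groups overlap, as in Trappc2, where 18 of 21 contralateral embryos lie above every equatorial embryo.

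Among called genes with a mean of at least 20 CPM, the largest rises were mostly those of genes with low medians and a wide spread. Zscan4f, a zinc finger gene of the burst of transcription in 2-cell embryos, ranged from 0 to 74.6 CPM (median 28.9) in contralateral and from 0 to 22.9 CPM (median 4.21) in equatorial embryos (log2 fold change 2.07, SE 0.50, adjusted p = 0.00262). Zscan4d, its more abundant and near-identical neighbour, had a median of 230.3 CPM in contralateral and 90.3 CPM in equatorial embryos (log2 fold change 1.03, adjusted p = 0.00616), and reads may be split between these copies. Abraxas1, the scaffold of the BRCA1-A complex at DNA breaks, ranged from 12.6 to 96.3 CPM (median 49.3) in contralateral and from 0 to 43.9 CPM (median 16.6) in equatorial embryos (log2 fold change 2.04, SE 0.40, adjusted p = 2.90e-04). Mest, an imprinted gene expressed from the paternal allele, had a median of 46.5 CPM in contralateral and 11.7 CPM in equatorial embryos (log2 fold change 1.77, SE 0.41, adjusted p = 0.00162), and 20 contralateral embryos were above the equatorial median. Ccnb3, the X-linked cyclin B3 of meiosis, had a median of 29.6 CPM in contralateral and 6.52 CPM in equatorial embryos (log2 fold change 1.94, SE 0.49, adjusted p = 0.00403). Zfp735, a zinc finger gene, had a median of 121.2 CPM in contralateral and 29.04 CPM in equatorial embryos (log2 fold change 1.71, SE 0.28, adjusted p = 4.00e-05), and Tdpoz3, of a family of near-identical copies, had 28.9 against 3.38 CPM as medians (log2 fold change 1.79, adjusted p = 0.0226). With the mitochondrial share as a covariate Zscan4d, Ccnb3 and Tdpoz3 were no longer called, and with GC and length offsets Zscan4d and Tdpoz3 were not.

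The largest falls, besides that of Gfod1, were those of Zbtb7a, Klf9 and 3 other genes. Zbtb7a, a zinc finger repressor, ranged from 0 to 108.96 CPM (median 17.5) in contralateral and from 9.03 to 120.7 CPM (median 82.1) in equatorial embryos (log2 fold change -1.67, SE 0.37, adjusted p = 0.00103). Klf9, a Krüppel-like factor, had a median of 30.4 CPM in contralateral and 115.3 CPM in equatorial embryos with a large error (log2 fold change -1.58, SE 0.53, adjusted p = 0.0397), yet all 21 contralateral embryos were below the equatorial median. Gnl1, a GTPase-like protein, had 22.7 against 48.8 CPM as medians (log2 fold change -1.48, adjusted p = 8.43e-04). Bicdl1, an adaptor of dynein, had 9.53 against 32.5 CPM (log2 fold change -1.53, adjusted p = 0.0111), and Slc43a2, an amino acid transporter, had 11.97 against 34.5 CPM (log2 fold change -1.42, adjusted p = 0.0289). Klf9, Bicdl1 and Slc43a2 were not called with the mitochondrial covariate nor with GC and length offsets, Klf9 also not within plate 1 or with the Y-linked covariate, Bicdl1 not with GC offsets, and Slc43a2 not with depth covariates. In pairs at or under 2% mitochondrial counts neither Klf9 nor Slc43a2 was called.

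Transcripts called in opposite directions differed in base composition and length. Genes called higher had a median GC content of 44.4% over the transcript (middle 50% of genes 41.2% to 48.1%), genes called lower 52.7% (48.5% to 56.3%) and genes not called 49.3%. Median transcript length was 1928, 3768 and 2837 bases. When the genes tested were ordered by GC content into 6 equal groups, 17.002% of the lowest and 1.14% of the highest were called higher, while 1.97% and 11.2% were called lower, and the median log2 fold change went from 0.30 to -0.38 without a break in the order. In 5 groups of length, 12.9% of the shortest and 2.59% of the longest transcripts were called higher, and 1.87% and 10.2% lower. The medians of plate 2, given below, did not show this order of length. Short transcripts of low GC content were called higher in 21.9% and lower in 1.35%, and long transcripts of high GC content higher in 0.642% and lower in 14.8%, when each feature was divided into 3. These shares describe the genes of 1 fit, and genes are not independent replicates.

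The same could be read per embryo. The GC content of transcripts, weighted by their counts, was 46.5% to 47.9% (median 47.1%) in contralateral, 47.3% to 48.02% (median 47.7%) in equatorial and 46.9% to 47.6% (median 47.2%) in ipsilateral embryos. The contralateral median was below every equatorial embryo, although single embryos overlapped. When each embryo's dependence on GC content was taken out with offsets, 1622 genes were called (12.3%), 541 higher (4.12%) and 1081 lower (8.23%), of which 944 were also called without offsets. With offsets for GC content and length 988 were called (7.52%), 296 higher (2.25%) and 692 lower (5.27%). The rank-sum test on values per length (TPM) gave 805 higher and 1294 lower. These offsets remove any difference that goes with composition or length, whatever its source. Counts of list members with offsets, given below, are to be set beside the 4.12% and 8.23%, or 2.25% and 5.27%, of all genes. Log2 fold changes with offsets are to be set beside the median over all genes, which was -0.068 with GC offsets and -0.069 with both. Of the 20 leading genes, the 10 lower ones passed with each kind of offset, and so did 7 of the 10 higher ones, all but Hprt, Nlrp9c and Rab11a. Hprt had 0.54, adjusted p = 4.15e-04 with GC offsets and 0.17, adjusted p = 0.250 with both, Nlrp9c had 0.17, adjusted p = 0.163 and 0.28, adjusted p = 0.0364, and Rab11a had 0.13, adjusted p = 0.391 and 0.13, adjusted p = 0.440 (log2 fold changes).

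**Figure D3:**
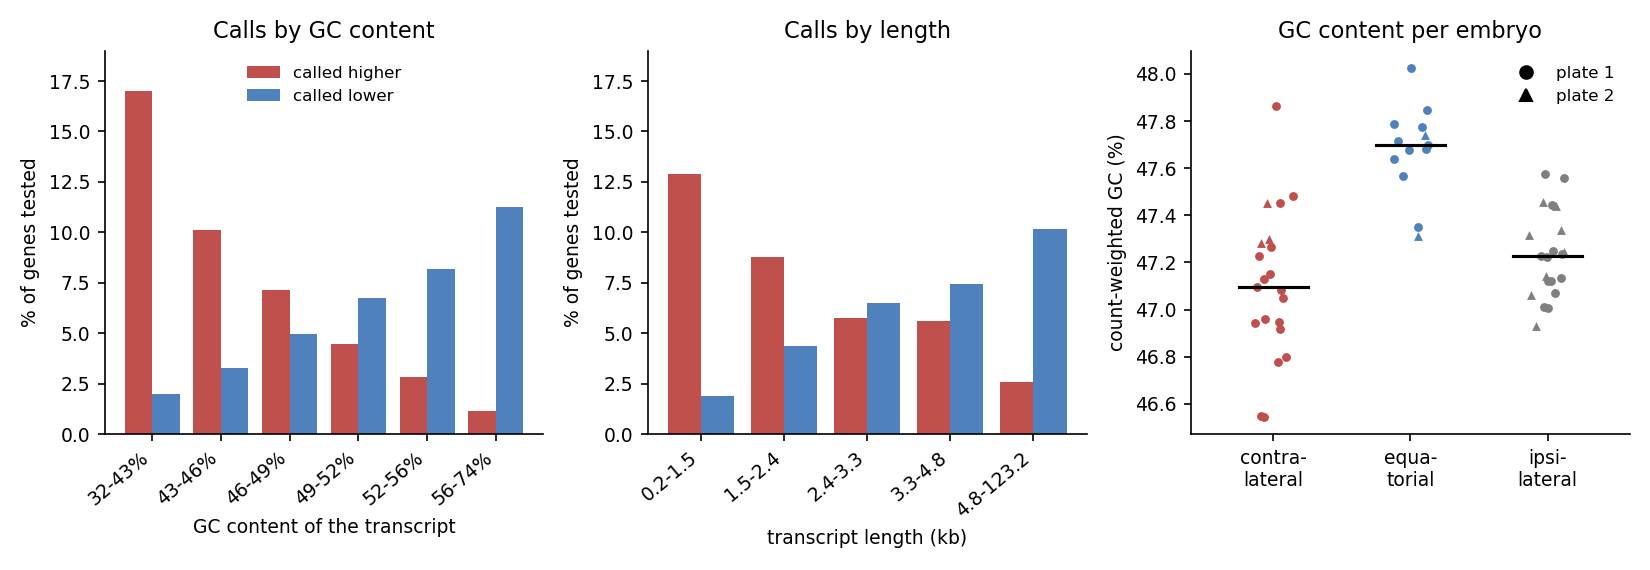
Left and middle, the share of genes tested that were called higher or lower after contralateral ICSI in groups of GC content and of transcript length; right, the count-weighted GC content (%) of each embryo by ICSI group, with a bar at the median. Calls go from 17.002% higher in the lowest GC group to 11.2% lower in the highest, and the medians of the embryos are 47.1% and 47.7%.

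Motifs at the 3' ends were searched on the strand of the transcript, in the last 100 bases of the 765 genes called higher, 749 called lower and 11137 tested whose annotated 3' UTR is at least that long. They differed less than composition and length. The polyadenylation signal AATAAA was present in 70.6% of those called higher, 68.1% of those called lower and 67.3% of all tested, and ATTAAA within 23.5%, 19.9% and 21.9%. The letters TTTTAT and TTTTAAT of cytoplasmic polyadenylation elements, which can overlap the signals, were in 19.6%, 15.6% and 15.5% and in 6.80%, 5.61% and 5.83%. The Pumilio motif TGTANATA was in 4.31%, 6.54% and 5.11%.

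Genes of the mitochondrion were called mostly higher. Of the 13 subunits encoded by mitochondrial DNA, 7 rose and 0 fell (median log2 fold change 0.30, beside 0 over all genes tested). mt-Atp8, a subunit of ATP synthase, ranged from 74.3 to 608 CPM (median 262) in contralateral and from 64.98 to 212 CPM (median 130.8) in equatorial embryos (log2 fold change 1.03, SE 0.17, adjusted p = 2.38e-05), and mt-Cytb of complex III had a median of 2526 CPM in contralateral and 1597 CPM in equatorial embryos (log2 fold change 0.60, adjusted p = 3.50e-04). Of 77 nuclear-encoded proteins of the mitochondrial ribosome, 12 rose and 1 fell (median 0.31). Among them were Mrpl53 (147 against 83.5 CPM as medians, log2 fold change 0.72, adjusted p = 7.11e-04), Mrps14 (287 against 199 CPM, 0.54, adjusted p = 0.00101) and Mrpl42 (84.9 against 43.9 CPM, 1.02, adjusted p = 0.00322). Of 80 nuclear-encoded subunits of the respiratory chain, 66 had a positive fold change, but 5 passed the test (6.25%, near the 7.12% of all genes), among them cytochrome c, Cycs (159 against 104.7 CPM, 0.45, adjusted p = 0.00625). The annotated transcript of mt-Atp8 has 31.9% GC and 204 bases, and that of Mrpl53 53.96% and 695 bases. With GC offsets the mitochondrially encoded subunits had 0 higher and 4 lower calls and the mitochondrial ribosome still 11 higher and 1 lower. With offsets for GC content and length they had 0 and 12, and 1 and 2, so their direction was not the same under each scaling. With the mitochondrial covariate the mitochondrial ribosome had 2 higher and 0 lower calls and the nuclear-encoded respiratory subunits 0 and 0. Neither Mrps14 nor Cycs was called with this covariate. The same held with GC offsets (0.10, adjusted p = 0.632, and 0.070, adjusted p = 0.769). The higher mitochondrial share of counts in the contralateral embryos, given above, is no second observation, because it is computed from the counts of mitochondrial genes. With this share as a covariate the mitochondrially encoded subunits had 2 higher and 3 lower calls. That result was partly fixed in advance, because the covariate is computed from their own counts.

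Of 56 kinetochore and spindle checkpoint genes, 13 rose and 1 fell (23.2% higher, against 7.12% of all genes). Besides Mad2l1, Nuf2 of the NDC80 complex, which binds microtubules, ranged from 178 to 458 CPM (median 349) in contralateral and from 154 to 312 CPM (median 211) in equatorial embryos (log2 fold change 0.65, adjusted p = 6.28e-05), and 15 contralateral embryos were above all equatorial ones. Cenpn, which binds the centromeric nucleosome, ranged from 302 to 957 CPM (median 648) in contralateral and from 309 to 554 CPM (median 425) in equatorial embryos (log2 fold change 0.59, adjusted p = 7.08e-05), with 18 contralateral embryos above all equatorial ones. With GC offsets the list had 8 higher and 4 lower calls, and Mad2l1 (0.38, adjusted p = 0.00233), Nuf2 (0.31, adjusted p = 0.0402) and Cenpn (0.47, adjusted p = 6.13e-04) remained called. With offsets for both features the list had 5 and 5, and with the mitochondrial covariate 4 and 1. The shares over all genes were 4.12% higher and 8.23% lower with GC offsets, 2.25% and 5.27% with both, and 2.89% and 2.36% with the covariate. Cohesin and condensin genes, 27 in all, had 3 and 3 calls without offsets and 0 and 8 with GC offsets. Of 46 cyclins and cyclin-dependent kinases 7 rose (15.2%) and 5 fell (10.9%), beside 7.12% and 6.06% of all genes. The mitotic cyclins Ccnb1 (a median of 1089 CPM in contralateral and 698 CPM in equatorial embryos, log2 fold change 0.46, adjusted p = 4.47e-05) and Ccnb2 (214 against 114.1 CPM, 0.82, adjusted p = 5.73e-05) rose, and Cdk9, the kinase that releases paused RNA polymerase II, fell (90.3 against 171 CPM, -0.72, adjusted p = 2.82e-04). Ccnb1 was not called with GC offsets (0.19, adjusted p = 0.0568).

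Enzymes of the ubiquitin system were divided by class. Of 29 ubiquitin-conjugating enzymes, 8 rose (27.6%) and 4 fell (13.8%), beside 7.12% and 6.06% of all genes. Of 32 genes of cullin ligases and the anaphase-promoting complex 6 rose (18.75%) and 0 fell. Ube2n, which builds lysine-63 chains, had a median of 274 CPM in contralateral and 183 CPM in equatorial embryos (log2 fold change 0.57, adjusted p = 1.05e-04), Anapc10 had 234 against 149 CPM (0.69, adjusted p = 1.98e-04) and Skp1a, the adaptor of SCF ligases, 559 against 409 CPM (0.43, adjusted p = 5.10e-04), with all 21 contralateral embryos above the equatorial median. Of 48 ubiquitin-specific proteases, which remove ubiquitin, 0 rose and 8 fell (16.7%). Usp36 (49.97 against 117.96 CPM, -0.94, adjusted p = 0.00446), Usp42 (113 against 167 CPM, -0.53, adjusted p = 0.00182) and Usp19 (130.6 against 198 CPM, -0.58, adjusted p = 0.00823) were among them. With GC offsets the conjugating enzymes had 3 higher and 4 lower calls, the ligases 1 and 2, and the proteases 0 and 15. With GC and length offsets the numbers were 2 and 4, 1 and 0, and 0 and 2, and with the mitochondrial covariate 5 and 1, 2 and 0, and 0 and 1. The shares over all genes in these settings were 4.12% higher and 8.23% lower, 2.25% and 5.27%, and 2.89% and 2.36%. Of the genes named, Ube2n (0.17, adjusted p = 0.242), Anapc10 (0.25, adjusted p = 0.117), Skp1a (0.19, adjusted p = 0.146) and Usp19 (-0.32, adjusted p = 0.170) were not called with GC offsets. With GC and length offsets Skp1a (0.032, adjusted p = 0.890), Usp36, Usp42 and Usp19 were not called, while Ube2n (0.33, adjusted p = 0.0266) and Anapc10 (0.44, adjusted p = 0.0152) were.

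In the endomembrane system more members were called higher than lower in 10 of 13 lists. The number called was small in each and, as in the coat genes (8.57% higher), could be near the 7.12% higher and 6.06% lower of all genes. Called or not, 18 of 25 genes of protein entry into the endoplasmic reticulum, 12 of 15 TRAPP genes and 25 of 37 SNAREs had positive fold changes. Only 10 of 26 clathrin and adaptor genes, 21 of 45 Rab GTPases, 13 of 26 ESCRT genes and 17 of 34 lysosome and V-ATPase genes did. Called higher and lower were 6 and 1 of 25 genes of protein entry into the endoplasmic reticulum, 3 and 0 of 35 coat genes, 3 and 1 of 15 TRAPP genes, 3 and 1 of 25 genes of the Golgi matrix and COG complex and 5 and 0 of 37 SNAREs. The numbers were 6 and 2 of 45 Rab GTPases, 4 and 0 of 26 retromer genes and sorting nexins, 4 and 0 of 26 clathrin and adaptor genes, 4 and 3 of 26 ESCRT genes and 0 and 2 of 20 genes of endoplasmic reticulum-associated degradation. Genes of glycosylation and folding in the endoplasmic reticulum had 3 and 3 of 31, those of lysosomes and the V-ATPase 5 and 2 of 34, and those of the exocyst 0 and 0 of 9. Sar1b, the GTPase that starts COPII coats, ranged from 17.3 to 163 CPM (median 67.9) in contralateral and from 2.63 to 107.6 CPM (median 22.1) in equatorial embryos (log2 fold change 1.43, SE 0.33, adjusted p = 0.00155). Bet1, a SNARE of transport to the Golgi, ranged from 28.9 to 196 CPM (median 77.6) in contralateral and from 3.19 to 123 CPM (median 21.2) in equatorial embryos (log2 fold change 1.28, SE 0.31, adjusted p = 0.00233), with all 21 contralateral embryos above the equatorial median. Rab7 of late endosomes had little spread and ranged from 373 to 565 CPM (median 465) in contralateral and from 251 to 464 CPM (median 351) in equatorial embryos (log2 fold change 0.40, SE 0.073, adjusted p = 1.05e-04). Vps35 of the retromer had 166 against 126.1 CPM as medians (log2 fold change 0.52, adjusted p = 0.00287), Snx16 116.9 against 65.9 CPM (0.79, adjusted p = 0.00137), Snap23 103 against 76.7 CPM (0.62, adjusted p = 0.00499) and Ap3m1 259 against 158 CPM (0.54, adjusted p = 3.47e-04). Rab3d, of regulated secretion, fell (164 against 251 CPM, -0.68, adjusted p = 3.82e-04), and so did Srp54a of the signal recognition particle (56.3 against 80.1 CPM, -0.53, adjusted p = 0.0229), though Srp54a was not called under 7 of the alternatives, among them the 34 embryos alone.

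With GC offsets the endoplasmic reticulum entry genes had 1 higher and 2 lower calls, the Rab GTPases 2 and 4, the SNAREs 1 and 0, and the retromer genes and sorting nexins 0 and 0. Coat genes had 3 and 2, TRAPP genes 2 and 1, Golgi matrix and COG genes 1 and 1, and clathrin and adaptor genes 1 and 0. The ESCRT genes had 3 and 2, those of the lysosome and V-ATPase 2 and 2, and those of the exocyst 0 and 1. Genes of glycosylation and folding had 2 and 4, and those of endoplasmic reticulum-associated degradation 1 and 4. Over all genes 4.12% were called higher and 8.23% lower with these offsets. Sar1b (1.11, adjusted p = 0.00893) and Rab7 (0.32, adjusted p = 0.00216) remained called. Bet1 (0.80, adjusted p = 0.0520), Vps35 (0.20, adjusted p = 0.356), Snx16 (0.40, adjusted p = 0.121), Snap23 (0.24, adjusted p = 0.335) and Ap3m1 (0.20, adjusted p = 0.204) did not pass. With GC and length offsets Sar1b (0.71, adjusted p = 0.113) was not called, while Rab7 (0.29, adjusted p = 0.0083) and Ap3m1 (0.47, adjusted p = 0.0027) were. With the mitochondrial covariate the endoplasmic reticulum entry genes had 0 and 0 calls, the Rab GTPases 4 and 1, the SNAREs 2 and 0, the retromer genes and sorting nexins 2 and 0, the coat genes 2 and 0, the clathrin and adaptor genes 2 and 0 and the ESCRT genes 4 and 0. Over all genes 2.89% were called higher and 2.36% lower with this covariate.

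Of the genes of oocyte growth and genome activation, all 7 Obox homeobox genes tested had positive fold changes and 4 rose (57.1%). Obox7 ranged from 76.6 to 421 CPM (median 213) in contralateral and from 32.5 to 248 CPM (median 87.9) in equatorial embryos (log2 fold change 1.25, SE 0.22, adjusted p = 7.57e-05), Obox1 had 486 against 301 CPM (log2 fold change 0.76, adjusted p = 1.14e-04) and Obox2 173 against 87.5 CPM (0.81, adjusted p = 6.95e-04), all from a cluster of close copies. The family had 3 and 0 calls with GC offsets and 1 and 1 with GC and length offsets, where Obox1 (0.23, adjusted p = 0.158) and Obox2 (0.22, adjusted p = 0.382) did not pass. Of 33 genes of the 2-cell activation program 5 rose (15.2%) and 1 fell (3.03%), beside 7.12% and 6.06% of all genes. Of 28 genes of the zona pellucida, sperm-egg fusion and oocyte factors 8 rose (28.6%) and 2 fell (7.14%). Among those that rose were Oosp3 (615 against 511 CPM, 0.37, adjusted p = 0.00153) and Oog3 (1029 against 766 CPM, 0.34, adjusted p = 0.00156), both of which were below 0 with GC offsets (log2 fold change -0.10, adjusted p = 0.494, and -0.010, adjusted p = 0.962). The numbers of the 2-cell activation genes were 3 and 3 with GC offsets and 1 and 5 with both, and those of the zona, fusion and oocyte factors 2 and 2, and 0 and 8. Of 15 genes of the subcortical maternal complex and its partners 3 rose (20%), such as Nlrp9a (294 against 186 CPM, 0.60, adjusted p = 6.68e-04), and 1 fell (6.67%), while with GC offsets the numbers were 0 and 1 and Nlrp9a did not pass (0.22, adjusted p = 0.238). The gene that fell without offsets was Zbed3, the gene with the largest count of any blastomere, which ranged from 2210 to 3993 CPM (median 2828) in contralateral and from 3093 to 4227 CPM (median 3610) in equatorial embryos (log2 fold change -0.30, SE 0.070, adjusted p = 0.00196). Reads with the same ends were counted once, which limits the counts of such genes. Zbed3 was not called with GC offsets (-0.16, adjusted p = 0.269), so the lower call there was of another gene. It was not called with GC and length offsets either (-0.25, adjusted p = 0.112).

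Of 10 markers of the oocyte 4 were called, in both directions, where 13.2% of all genes were called. Gdf9, the growth factor secreted by the oocyte, ranged from 209.9 to 430.2 CPM (median 290.0) in contralateral and from 248 to 466 CPM (median 346) in equatorial embryos and fell (log2 fold change -0.31, SE 0.090, adjusted p = 0.0137). Dppa3, a maternal factor that protects DNA methylation, ranged from 1162 to 2274 CPM (median 1578) in contralateral and from 1046 to 2404 CPM (median 1321) in equatorial embryos and rose by a small amount (log2 fold change 0.25, SE 0.086, adjusted p = 0.0454), and with GC and length offsets it was lower (-0.50, adjusted p = 1.02e-04). Gdf9 was not called under 4 of the alternatives, and Dppa3 was not called higher under 8, among them that with GC and length offsets. Ooep, of the subcortical maternal complex, had a median of 193 CPM in contralateral and 109.3 CPM in equatorial embryos (log2 fold change 0.54, adjusted p = 0.0138), and H1foo, the linker histone of the oocyte, 702 against 472 CPM (0.33, adjusted p = 0.0149). Neither Ooep nor H1foo was called with the mitochondrial covariate or with GC and length offsets. Ooep was also not called with GC offsets, and H1foo not by rank-sum test on TPM. Bmp15, the X-linked partner of Gdf9, had a median of 1160 CPM in contralateral and 984 CPM in equatorial embryos and did not pass (log2 fold change 0.12, SE 0.074, adjusted p = 0.312). Of 285 zinc finger genes named Zfp, 27 rose (9.47%) and 19 fell (6.67%), near the 7.12% and 6.06% of all genes. Zfp616 (104.5 against 42.2 CPM, 1.23, adjusted p = 6.07e-05) rose beside Zfp735, and Zfp296 fell. With GC offsets 6 rose and 23 fell, beside 4.12% and 8.23% of all genes. With the mitochondrial covariate 9 rose and 10 fell, beside 2.89% and 2.36%.

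Of 83 cytosolic ribosomal proteins 1 rose and 7 fell (8.43%, near the 6.06% of all genes, with a median of -0.054). Rpsa ranged from 27.4 to 207 CPM (median 98.9) in contralateral and from 145 to 326 CPM (median 172) in equatorial embryos (log2 fold change -0.88, SE 0.18, adjusted p = 5.79e-04), with 17 contralateral embryos below all equatorial ones. Rpl12 had 55.2 against 100.05 CPM as medians (log2 fold change -0.84, adjusted p = 6.71e-04) and Rplp1 145 against 254 CPM (-0.73, adjusted p = 1.83e-04). Ribosomal protein genes have many processed copies among which reads can be split. Of 54 initiation factors and their kinases 4 rose and 9 fell (16.7%), and of 31 aminoacyl-tRNA synthetases 1 rose and 1 fell. Eif2b1, of the complex that recharges eIF2 with GTP, rose and ranged from 98.3 to 494 CPM (median 305) in contralateral and from 70.7 to 258 CPM (median 155) in equatorial embryos (log2 fold change 1.02, SE 0.16, adjusted p = 2.38e-05). Eif4g1, the scaffold that joins the cap to the ribosome, fell (152 against 289.9 CPM, -0.76, adjusted p = 2.41e-04), as did Eif2ak3, the kinase PERK of the unfolded protein response (29.4 against 54.2 CPM, -0.94, adjusted p = 0.00141). With GC offsets the ribosomal proteins had 1 higher and 8 lower calls and the initiation factors 4 and 13, and with GC and length offsets 0 and 41, and 1 and 10. With the mitochondrial covariate they had 0 and 9, and 1 and 3.

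Of 47 genes of deadenylation, decapping and decay 2 rose (4.26%) and 7 fell (14.9%), beside 7.12% and 6.06% of all genes. Cnot7, a catalytic subunit of the CCR4-NOT deadenylase, rose and ranged from 499 to 1305 CPM (median 854) in contralateral and from 517 to 791 CPM (median 582) in equatorial embryos (log2 fold change 0.49, SE 0.084, adjusted p = 5.60e-05), while Tob2, described above, and Smg5 of nonsense-mediated decay fell (Smg5 27.1 against 55.1 CPM, -1.20, adjusted p = 0.00101). Of 41 genes of mRNA storage and cytoplasmic polyadenylation 2 rose (4.88%) and 5 fell (12.2%). Dazl, an RNA-binding protein that activates translation in oocytes, rose (a median of 522 CPM in contralateral and 318 CPM in equatorial embryos, log2 fold change 0.72, adjusted p = 2.67e-04), and Pabpc1, which binds poly(A) tails (157 against 252 CPM, -0.66, adjusted p = 0.00145), and Igf2bp3 (148 against 236 CPM, -0.54, adjusted p = 0.00101) fell. With GC offsets these lists had 1 higher and 10 lower, and 2 higher and 9 lower calls, beside 4.12% and 8.23% of all genes. Neither Cnot7 (0.082, adjusted p = 0.533) nor Dazl (0.19, adjusted p = 0.342) was then called. The same held with GC and length offsets (0.17, adjusted p = 0.156, and 0.27, adjusted p = 0.178).

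Of 37 genes of the SWI/SNF, INO80, SRCAP and related remodellers 0 rose and 6 fell (16.2%, beside 6.06% of all genes, median -0.26). They included Smarcd2 (a median of 99.1 CPM in contralateral and 172 CPM in equatorial embryos, log2 fold change -0.82, adjusted p = 3.37e-04), Arid1a (532 against 732 CPM, -0.37, adjusted p = 0.00128) and Smarca5 (889 against 1072 CPM, -0.32, adjusted p = 0.00306). Of 25 genes of cortical polarity 0 rose and 6 fell (24%, median -0.37). Pard3, of the apical PAR complex, ranged from 432 to 744 CPM (median 518) in contralateral and from 535 to 854 CPM (median 742) in equatorial embryos (log2 fold change -0.39, SE 0.082, adjusted p = 5.32e-04), and 13 contralateral embryos were below all equatorial ones. Mark2, a kinase that acts at the opposite side of the cortex, had 209 against 290.4 CPM (-0.51, adjusted p = 6.45e-04). The polarity kinase Stk11 had 142 against 205 CPM (-0.61, adjusted p = 8.19e-04). With GC offsets the remodellers had 1 higher and 10 lower calls and the polarity genes 0 and 3, beside 4.12% and 8.23% of all genes. With GC and length offsets the numbers were 1 and 5, and 0 and 1, and with the mitochondrial covariate 0 and 4, and 0 and 4. The median log2 fold change of the polarity genes with GC and length offsets was -0.040, beside -0.069 over all genes. Pard3 had -0.25, adjusted p = 0.0493 with GC offsets and adjusted p = 0.993 with both, and Arid1a turned to 0.21, adjusted p = 0.0729 with both. Arid1a was also not called with GC offsets (-0.093, adjusted p = 0.559) or with the mitochondrial covariate (-0.26, adjusted p = 0.0527). Mark2 (-0.22, adjusted p = 0.181) and Stk11 (-0.25, adjusted p = 0.154) were not called with GC offsets. With both offsets they were not called either (-0.15, adjusted p = 0.486, and -0.22, adjusted p = 0.280). Of 18 Hippo pathway genes 1 rose (5.56%), the kinase Stk3 (125.9 against 86.9 CPM, 0.68, adjusted p = 0.00354), and 4 fell (22.2%), among them the coactivator Yap1 (a median of 400.2 CPM in contralateral and 519 CPM in equatorial embryos, log2 fold change -0.44, adjusted p = 2.81e-04) and Wwc2 (836 against 1222 CPM, -0.45, adjusted p = 7.75e-05). Stk3 was not called with either kind of offset. Of 70 actin, Arp2/3, formin and myosin genes 12 rose (17.1%) and 3 fell (4.29%), with the light chain Myl12a (379 against 192 CPM, 0.75, adjusted p = 7.15e-05) and the capping protein Capza2 (245 against 149.8 CPM, 0.59, adjusted p = 0.00103) higher and Myo9b lower (78.8 against 138 CPM, -0.87, adjusted p = 9.84e-04). With GC offsets 6 rose and 8 fell. Capza2 was not called with GC offsets (0.14, adjusted p = 0.490) nor with both (0.17, adjusted p = 0.425). Myo9b was not called with both (-0.40, adjusted p = 0.152).

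**Figure D4:**
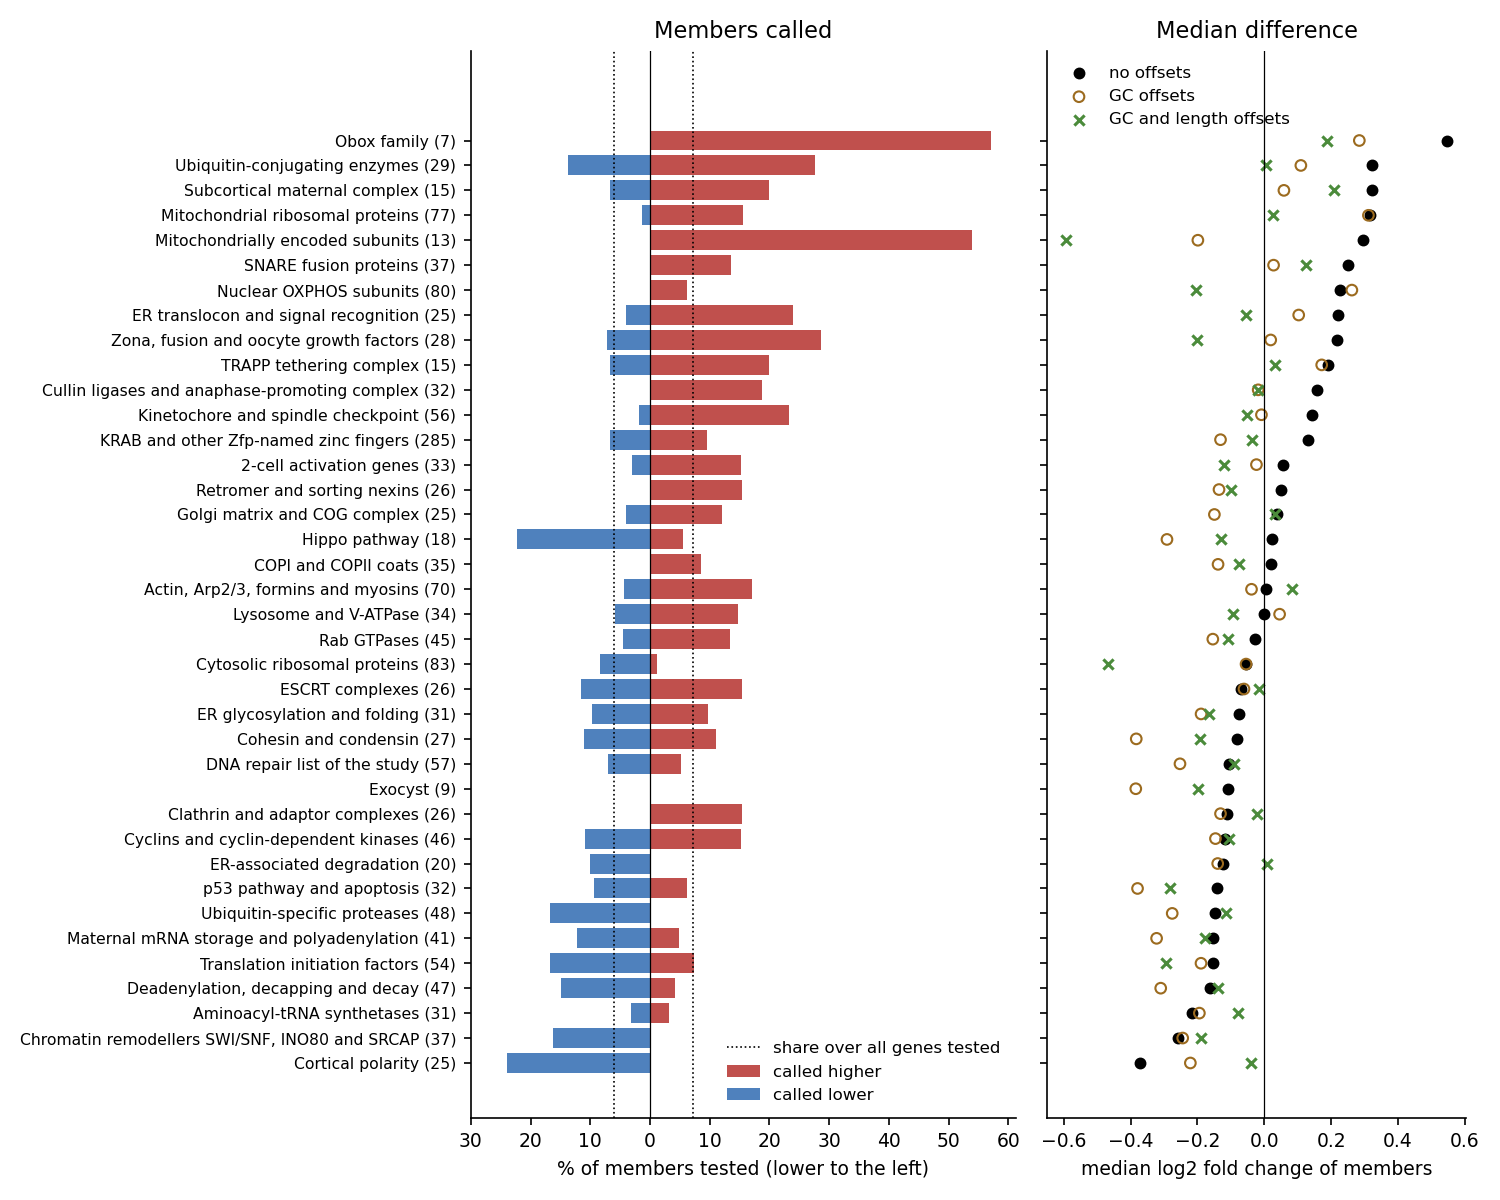
Left, the share of tested members of each gene list (number of members in brackets) called higher or lower after contralateral ICSI, with dotted lines at 7.12% and 6.06%, the shares over all genes tested; right, the median log2 fold change of each list without offsets, with GC offsets and with GC and length offsets. Polarity genes (-0.37) and remodellers (-0.26) have the lowest medians without offsets, and that of the mitochondrially encoded subunits goes from 0.30 to -0.59 with both offsets.

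The study tabulated a family of DNA repair genes in these same embryos, so a count over that list is not independent evidence of a direction. Of its 57 members tested 3 rose and 4 fell (5.26% and 7.02%, beside 7.12% and 6.06% of all genes). Brca2, which acts in homologous recombination, ranged from 824 to 1274 CPM (median 1139) in contralateral and from 727 to 1294 CPM (median 1064) in equatorial embryos and did not pass (log2 fold change 0.059, SE 0.061, adjusted p = 0.604), while with GC offsets it passed in the lower direction (-0.25, adjusted p = 0.0178). Znhit1, a subunit of the SRCAP remodeller, had few counts and ranged from 0 to 11.1 CPM (median 2.53) in contralateral and from 0 to 11.05 CPM (median 2.89) in equatorial embryos (log2 fold change -0.093, SE 0.69, adjusted p = 0.961), so a difference was not detectable at this depth. Of 32 genes of the p53 pathway and apoptosis 2 rose (6.25%), among them the inhibitor of apoptosis Birc3 (279 against 205 CPM, 0.55, adjusted p = 0.00101), and 3 fell (9.38%). Sesn2, a stress-induced inhibitor of mTORC1, ranged from 23.6 to 196 CPM (median 48.04) in contralateral and from 76.4 to 223 CPM (median 162) in equatorial embryos (log2 fold change -1.25, SE 0.23, adjusted p = 1.73e-04), and the survival factor Bcl2l1 had 98.5 against 187 CPM (-0.84, adjusted p = 3.50e-04).

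The X chromosome stood out by position. Of 462 X-linked genes tested 61 rose (13.2%) and 4 fell (0.866%), with a median log2 fold change of 0.38, while the medians of the 19 autosomes lay between -0.11 and 0.092. Trappc2, Hprt, Taf9b and Ccnb3 are X-linked, as are Ube2a (a median of 258 CPM in contralateral and 153 CPM in equatorial embryos, log2 fold change 0.84, adjusted p = 1.83e-04), Rbbp7 (744 against 488 CPM, 0.58, adjusted p = 6.39e-05) and Ssr4 (18.5 against 7.53 CPM, 1.31, adjusted p = 0.0228), which was not called under 7 of the alternatives. Embryos differed in Y-linked transcripts. The 4 genes Eif2s3y, Uty, Ddx3y and Usp9y together had 57 to 265 counts in 8 of 21 contralateral embryos and at most 2 in the others, and 18 to 333 in 8 of 13 equatorial embryos and at most 1 in the others. The labels do not give the sex of an embryo, so it is not a group here. The median deviation of 157 X-linked genes from their level over all 55 embryos, on the log2 scale, went from -1.22 to -0.16 in the equatorial embryos with Y-linked counts and from -0.10 to 0.0076 in those without, and from -0.36 to 0.011 and from -0.035 to 0.26 in the contralateral embryos. That of autosomal genes stayed between -0.037 and 0.064. So Y-linked counts were present in a larger share of the equatorial embryos, and in both groups the lowest X-linked levels were those of embryos with such counts. The part of embryo sex in the X-linked calls was not tested, beyond the covariate that follows.

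With the Y-linked level as a covariate the median of the X-linked genes was 0.32, with 59 higher and 6 lower calls, and 1513 genes were called in all (11.5%), 824 higher (6.27%) and 689 lower (5.24%). Trappc2 (1.21), Hprt (0.90) and Taf9b (0.89) then kept log2 fold changes close to those without it. Ccnb3 moved more, from 1.94 to 1.67, while Ssr4 went from 1.31 to 1.20, Ube2a from 0.84 to 0.79 and Rbbp7 from 0.58 to 0.55. The lowest X-linked level (-1.22) was that of equatorial embryo 67 of plate 2, and without it the median of the X-linked genes was 0.33. With GC offsets it was 0.20 with 32 higher and 11 lower calls. In the lowest of the 6 GC groups 19.05% of X-linked and 16.6% of autosomal genes were called higher, in the next 18.6% and 9.76%, and in the third 10.3% and 6.997%. In the fourth the order turned, with 2.13% (1 of 47 X-linked genes) and 4.53%, and in the fifth and sixth the shares were 4.35% and 2.80%, and 3.57% and 1.11%.

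**Figure D5:**
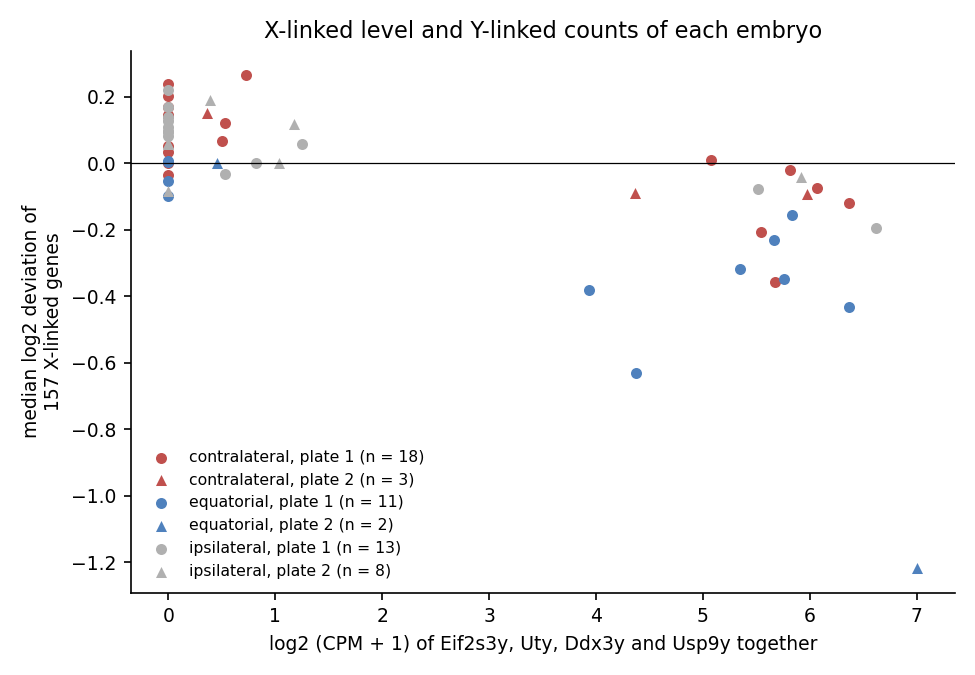
Each point is an embryo, with the log2 level (CPM + 1) of 4 Y-linked genes together on the x axis and the median log2 deviation of 157 X-linked genes from their median over all embryos on the y axis, colours for ICSI group and shapes for plate. Embryos with Y-linked counts (8 of 21 contralateral, 8 of 13 equatorial) sit lower, and embryo 67 at -1.22 is lowest.

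The comparison rests on plate 1, which held 18 contralateral and 11 equatorial embryos. Within it 2176 genes were called, 1241 higher (9.65%) and 935 lower (7.27%), together 16.9% of 12864 tested. In plate 2, with 3 contralateral and 2 equatorial embryos, edgeR called 0 genes (768 at an unadjusted p under 0.05). Of 2175 genes called in plate 1 and tested in both, 1206 had the same sign in plate 2 (55.4%), beside 52.8% of all 12823 genes. The difference between these shares was not tested. The median log2 fold change across the 6 GC groups went from 0.35 to -0.40 in plate 1 and from 0.16 to -0.024 in plate 2. Across the 5 groups of length, from shortest to longest, it went from 0.42 to -0.16 in plate 1. In plate 2 the medians of these groups were 0.029, 0.052, 0.063, 0.055 and 0.051. All 20 leading genes had the same sign in plate 2, whose embryos had a part in choosing them. Taf9b (1.31), Vta1 (1.21) and Zfp296 (-1.01) had the largest log2 fold changes there, and Nlrp9c (0.016) and Pdxp (-0.026) were near 0. Of all 1733 called genes, 1229 had the same sign in plate 2. The plate 2 embryos were also in the fit that called them, so this agreement was partly fixed in advance. Among the named genes whose sign turned there were Sar1b (-0.32), Skp1a (-0.25), Dazl (-0.18), Arid1a (0.29) and Bicdl1 (0.69). Others were Cycs (-0.21), Usp36 (0.20), Myl12a (-0.15), Obox1 (-0.13), Anapc10 (-0.11), Nlrp9a (-0.090), Stk11 (0.069), Mrps14 (-0.044) and Obox2 (-0.022).

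The ipsilateral embryos share the equatorial controls with this comparison, so their values are only set beside it. Against the equatorial embryos 874 genes were called there (6.65%), 451 higher (3.43%) and 423 lower (3.22%). With the ipsilateral embryos in place of the equatorial ones as controls edgeR called 0 genes (555 at an unadjusted p under 0.05). The 10 leading higher genes had ipsilateral log2 fold changes of 0.32 to 1.20 and the 10 lower ones of -1.03 to -0.47. Tank had 1.20, Trappc2 0.91 and Mad2l1 0.65 there, and Phc2 had -0.85, Gfod1 -1.03 and Hdgf -0.47. Pard3 had -0.28, mt-Atp8 0.90 and Klf9 -0.46. Between the sisters of an embryo, the median difference in level without sign was 0.25 for Rab11a, 0.36 for Mad2l1, 0.39 for Trappc2, 0.49 for Phc2 and 1.06 for Gfod1, on the log2 scale of CPM + 1 in single blastomeres.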

How the data were processed

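The authors trimmed the reads (Trimmomatic), aligned them with STAR 2.7.10b without strand to GRCm38 and deposited counts per gene and blastomere, whole numbers without normalization, for 32285 genes in 125 blastomeres on 2 plates. STAR was run with and without exact removal of duplicates, and the table is identical in all 4035625 entries to the deposited version with removal, so reads with the same ends count once and the counts of abundant short genes are limited. The largest was 6130. The effect on fold changes was not tested, and a count is not an independent molecule. Groups, sisters and plate were taken from the labels. In these labels each row of wells of a plate held a single ICSI group. Injection site and plate row therefore cannot be told apart, and the plate covariate does not cover the row. With 7 blastomeres under 9500 detected genes, 15 were set aside, those 7 and the ones left without a kept sister. Nothing in the labels says that the embryos came from separate sessions, so p-values measure the spread between these embryos.

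Here the counts of sisters were added and tested with edgeR 4.0.16 (R 4.3.3; TMM, filterByExpr, robust quasi-likelihood test, plate as a covariate, Benjamini-Hochberg adjustment, threshold 0.05) in 1 fit of 55 embryos. Library measures were compared with 100000 permutations (scipy 1.17.1). Transcript GC content, length and 3' ends are those of GENCODE M21 of GRCm38, while the authors used M23. The alternatives are named with their values below. The offsets for GC content and length (lowess, span 0.3), the Y-linked covariate and the omission of embryo 67 were chosen after seeing the data. The fits were tested on simulated data. The members and the gene lists were chosen with earlier results of these data known, so lists are described and not tested. No set test was run. Named genes have official symbols and are the 10 called higher and 10 called lower with the smallest p, the 6 and 6 with the largest log2 fold change among called genes with a mean of at least 20 CPM, up to 3 called members of a list with the smallest p (some left out), and Brca2, Znhit1, Gdf9, Bmp15 and Dppa3. A further gene that the rule names is not reported here. Y-linked genes, Ooep, Inha and Amh are markers named outside this rule, after their values were seen for the Y-linked genes and Ooep.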

Additional observations from a re-analysis of the deposited data

How the results depend on the processing

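The main count of genes called was 1733. With every gene with a count tested instead of the filter it was 3930, with the mitochondrial share as a covariate 690, with pairs at or under 2% mitochondrial counts 1104, and with GC and length offsets 988. The others gave 1193 (depth covariates) to 2270 (DESeq2, where 2548 genes had no adjusted p). Among them, the fit of the 34 contralateral and equatorial embryos alone gave 1488 of 11638 tested, 866 higher and 622 lower. The share called higher was 936 of 1733 without offsets, 541 of 1622 with GC offsets, 296 of 988 with both and 805 of 2099 by rank-sum test on TPM. So lower calls were the more frequent over all genes with offsets (8.23% against 4.12% with GC offsets, 5.27% against 2.25% with both). Of 2121 list members tested 367 were called, and 167 with the mitochondrial covariate. The cause of these changes was not tested. The difference in detected genes was 507 within plate 1 (2-sided permutation test, adjusted p = 0.0579), and that in mitochondrial share 0.174 percentage points in pairs at or under 2% (adjusted p = 0.0624). Higher minus lower calls turned, with GC offsets, to -1 (endoplasmic reticulum entry), -2 (Rab GTPases), -4 (mitochondrially encoded subunits), -1 (ubiquitin-conjugating enzymes), -1 (cullin ligases), -17 (Zfp genes) and -2 (actin and myosins), with GC and length offsets, to -5 (endoplasmic reticulum entry), -3 (Rab GTPases), -1 (lysosome and V-ATPase), -12 (mitochondrially encoded subunits), -6 (nuclear OXPHOS subunits), -1 (mitochondrial ribosomal proteins), -2 (ubiquitin-conjugating enzymes), -7 (Zfp genes), -8 (zona and oocyte factors) and -4 (2-cell activation genes), and with the mitochondrial covariate, to -1 (mitochondrially encoded subunits) and -1 (Zfp genes). Log2 fold changes turned, with GC offsets, to -0.10 (Oosp3), -0.010 (Oog3), 0.25 (Znhit1), -0.25 (Brca2) and -0.21 (Bmp15), with both offsets, to -0.25 (mt-Atp8), -0.28 (mt-Cytb), 0.21 (Arid1a), -0.62 (Oosp3), -0.13 (Oog3), -0.50 (Dppa3) and -0.12 (Bmp15), by rank-sum test on TPM, to -0.036 (Brca2), in pairs at or under 2%, to 0.19 (Znhit1), and with the Y-linked covariate, to 0.080 (Znhit1). The turn of the mitochondrially encoded subunits under the mitochondrial covariate was partly fixed in advance, because that covariate is computed from their counts. Of 99 named genes that were called, 47 kept call and direction under all 16 alternatives. No paired analysis was possible because embryo numbers are not shared between the groups. With 2 equatorial embryos, plate 2 alone limits what can be detected there.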

Other observations

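Most classes of transcripts that code for no protein were called higher more often than lower. Of 664 lincRNAs tested 80 were higher (12.05%) and 7 lower (1.05%) after contralateral ICSI, beside 7.12% and 6.06% of all genes. Their median log2 fold change was 0.54 and their median GC content 45.7%. Of 340 antisense genes 24 were higher (7.06%, near that of all genes) and 1 lower (0.294%, median 0.34), but the counting used no strand, so their reads cannot be told from those of overlapping genes. Processed transcripts had 14 and 0 calls of 162 (8.64% higher) and bidirectional promoter lncRNAs 2 and 0 of 47 (4.26%). Sense intronic genes had 0 and 0 of 38 (median -0.051). Protein-coding genes had 811 higher and 789 lower calls of 11868.

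Several lists had few calls or calls in both directions, beside 7.12% higher and 6.06% lower over all genes. Of 73 spliceosome genes 7 were higher and 4 lower, of 44 proteasome genes 3 and 2, of 29 histone genes 2 and 0, and of 34 kinesins 1 and 2. Glycolysis had 2 higher and 3 lower calls of 22, sterol synthesis and uptake 3 and 2 of 25, and the tricarboxylic acid cycle 1 and 0 of 16.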
